A study of Equus caballus with 15 samples.

Results

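IL4, IL5, IL13, IL31 and IL9, which encode cytokines of type 2 immunity, were followed in equine macrophage cultures under 5 conditions. The genes were taken by their symbols, a rule that used no measured value, and they make up 5 of the 16932 protein-coding genes with values. All 5 were found once each and all 5 passed the filter on low values. IL13 set the conditions apart, since its mean with PRP lysate or ACS was 2.54 to 3.53 times that of each other group. IL31 ran from the MSC-CM libraries at the bottom to a pair of PRP lysate libraries at the top, and IL4, IL5 and IL9 gave few calls or none.

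Type 2 cytokines are made mainly by T helper 2 cells, group 2 innate lymphoid cells, mast cells and basophils, and macrophages are among the cells that respond to them. IL-4 and IL-13 share a receptor chain, IL4R, act through the transcription factor STAT6, and drive the alternative activation of macrophages. IL-5 supports eosinophils, IL-9 supports mast cells, and IL-31 signals through IL31RA and OSMR and is known for causing itch, also in allergic skin disease of horses.

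Macrophages were grown over 5 days with 30 ng/ml human M-CSF from blood mononuclear cells of a pair of geldings, 3 and 5 years old, so every group shared the M-CSF and the adherent blood cells that it was grown from. Untreated cultures received nothing further, while the IL-1ß group received 10 ng/ml of this cytokine. The other cultures received the same IL-1ß together with 1 orthobiological therapy (OT) at 25% of the medium for 24 h. These OTs were medium conditioned by bone marrow mesenchymal stromal cells (MSC-CM), platelet rich plasma lysate (PRP lysate) and autologous conditioned serum (ACS), each prepared from 3 horses, 2, 5 and 5 years old, that had not given the macrophages. Each group held 3 libraries of polyadenylated RNA. The OT libraries thus differ in the donor of the product, whereas the paper describes the IL-1ß and untreated libraries as technical replicates, and p-values against the controls measure the spread between such samples. The paper describes a further day of culture after the treatment was washed off, and the sample descriptions mention none.

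Values are CPM, the reads counted on a gene scaled to the same total in every library. The libraries held 28410735 to 47894069 reads on genes, so 1 read was worth 0.0209 to 0.0352 CPM, and whole reads could be recovered for every value. Differences were tested with limma on log2(CPM + 0.1) over 13955 genes and all 15 libraries. A call needed a Benjamini-Hochberg adjusted p up to 0.05 together with a change of 2-fold or more. On the first principal component, which held 40.6% of the variance, IL-1ß replicate 3 scored -144 and PRP lysate replicate 1 scored -65.2, apart from the other libraries, so calls are also given without these libraries where that changes them. The median log2 fold change over all genes was 0.20 for MSC-CM, 0.13 for PRP lysate and 0.17 for ACS against IL-1ß, and -0.10 for PRP lysate against MSC-CM. No transcript lengths were used here, so which of several genes had the higher level was not asked, and ratios between genes were set side by side between libraries only. No sequence of these genes was used here either.

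IL13, IL4 and IL5 lie in the same order and neighbourhood as in other mammals, on chromosome 14 of EquCab3.0, the build of the deposited values. IL4 (ENSECAG00000008299) spans 42204063 to 42212066, IL13 (ENSECAG00000009732) spans 42223417 to 42226339, and IL5 (ENSECAG00000016648) spans 42325088 to 42326665, with RAD50 between IL13 and IL5. IL9 (ENSECAG00000026985) lies on the same chromosome at 39485019 to 39488014, and IL31 (ENSECAG00000017423) lies on chromosome 8 at 24923894 to 24925920. Values are per gene, over all of its annotated exons. Whether reads were counted by strand is not given in the sources used here, so reads of overlapping or antisense genes could not be separated.

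IL13 encodes the type 2 cytokine that acts most broadly on epithelium, mucus and macrophages. Its level was 20.6, 14.6 and 17.6 CPM in untreated replicates 1, 2 and 3, and 17.5, 19.9 and 18.5 CPM with IL-1ß. With MSC-CM it was 21.0, 12.0 and 11.9 CPM. It was 50.7, 64.7 and 43.3 CPM with PRP lysate and 45.3, 50.5 and 46.0 CPM with ACS. All 6 libraries with PRP lysate or ACS therefore lay above all 9 others, as every library did for PRP lysate in 8.32%, 9.31% and 6.86% of all genes against IL-1ß, untreated and MSC-CM, and for ACS in 14.6%, 15.1% and 12.2%, and the libraries of the remaining groups overlapped each other. Between the lowest library of the upper block and the highest of the lower block there was a gap from 43.3 to 21.0 CPM, with 1230 and 929 reads behind these values.

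Against IL-1ß alone, IL13 rose by a log2 fold change of 1.48 (SE 0.23) with PRP lysate, from 18.6 ± 1.24 to 52.9 ± 10.9 CPM (SD, n = 3 in each group), a ratio of means of 2.84 (limma, adjusted p = 0.00207). With ACS it rose by 1.34 (SE 0.23) to 47.3 ± 2.83 CPM, a ratio of 2.54 (limma, adjusted p = 0.00902). In both comparisons IL13 was the 1 of the 5 cytokine genes that was called, where 2.97% of all genes were called for PRP lysate, 1.12% as higher, and 1.94% for ACS, 1.15% as higher. The comparisons use the same IL-1ß libraries and so are not independent. Fewer cells of a type and less RNA per cell cannot be told apart in such bulk libraries, and the same holds for more of either.

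The call for ACS was lost when ACS replicate 2 was left out (adjusted p = 0.0572), with a log2 fold change of 1.29. Both calls were lost when only the 6 libraries compared entered the fit (limma, adjusted p = 0.0830 for PRP lysate and 0.0592 for ACS). Over all alternatives the log2 fold change of IL13 lay between 1.33 and 1.62 for PRP lysate, with adjusted p between 2.22e-05 and 0.0830, and between 1.21 and 1.39 for ACS, with adjusted p between 0.000726 and 0.0592.

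IL13 was also higher with these OTs than in the remaining groups. Against MSC-CM its log2 fold change was 1.84 (SE 0.23) for PRP lysate (limma, adjusted p = 0.000642) and 1.70 for ACS (adjusted p = 0.00322), and both calls held in every alternative. Against untreated cultures it was 1.58 for PRP lysate (adjusted p = 0.00272), a call that held in every alternative. For ACS against untreated cultures it was 1.43 (adjusted p = 0.0290), a call that was lost without any 1 of the 6 libraries (adjusted p from 0.0582 to 0.162) and in edgeR (adjusted p = 0.0557).

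The remaining contrasts of IL13 were small. IL-1ß alone differed from no treatment by a log2 fold change of 0.09, with a 95% interval of -0.40 to 0.58 (limma, adjusted p = 0.853), and the sign turned without untreated replicate 2. MSC-CM differed from IL-1ß by -0.36, with an interval of -0.85 to 0.13 (adjusted p = 0.696). ACS and PRP lysate differed by -0.14, with an interval of -0.63 to 0.35 (adjusted p = 0.874), so that a difference within this interval was not excluded between the products.

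**Figure D1:**
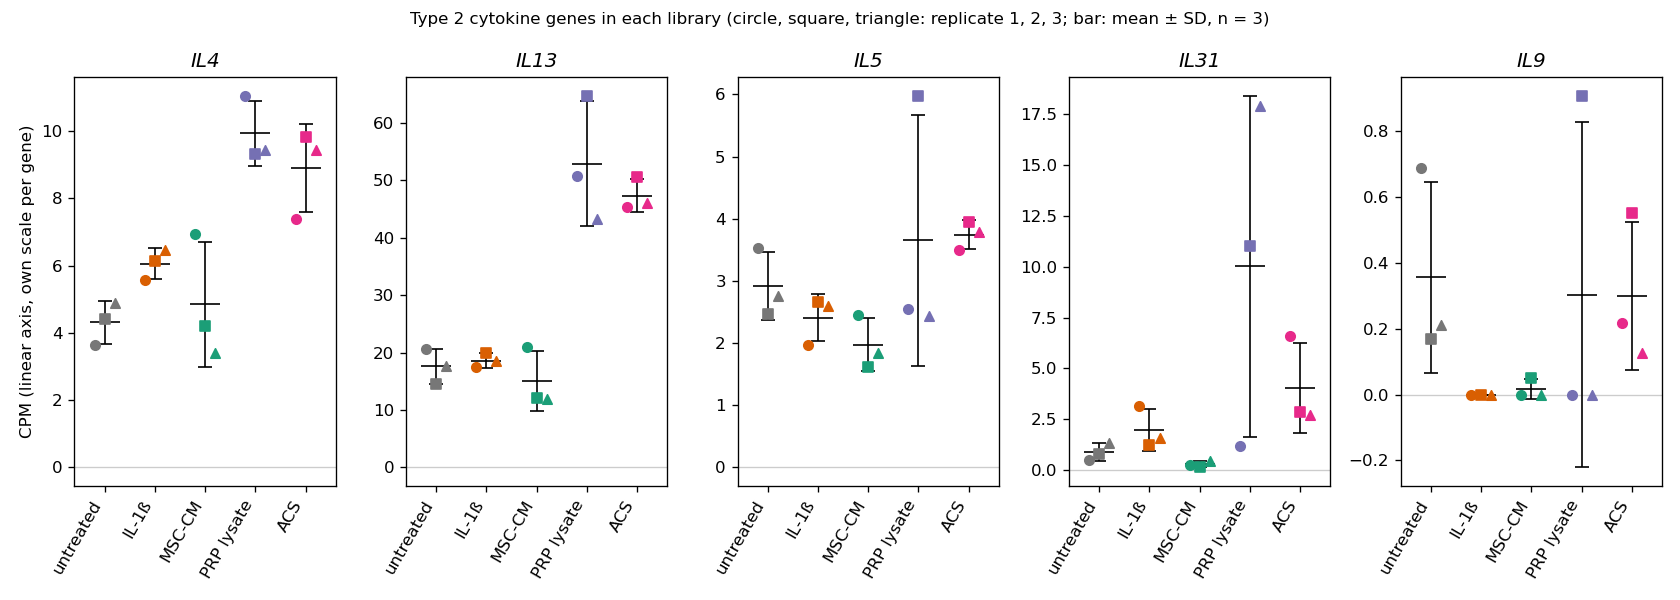
CPM (vertical axes, linear, each gene on its own scale) of the 5 cytokine genes in the 15 libraries by group, with the mean and SD of 3 libraries as a bar, and where the SD exceeds the mean, the lower end runs below 0. The PRP lysate and ACS libraries of IL13 sit between 43.3 and 64.7 CPM and all others between 11.9 and 21.0 CPM, whereas 1 PRP lysate library stands alone in IL5 and IL9.

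IL4, whose product starts T helper 2 differentiation and the switch of B cells to IgE, lay 19.4 kb before IL13 and followed it less steeply. Its level was 3.63, 4.40 and 4.90 CPM in untreated cultures and 5.56, 6.13 and 6.47 CPM with IL-1ß. It was 6.93, 4.22 and 3.39 CPM with MSC-CM. With PRP lysate it was 11.04, 9.30 and 9.43 CPM, and with ACS 7.39, 9.82 and 9.44 CPM. The 6 libraries with PRP lysate or ACS again held the highest values, from 7.39 CPM up, MSC-CM replicate 1 came next at 6.93 CPM, and all 3 IL-1ß libraries lay above all 3 untreated ones, as in 7.29% of all genes.

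IL4 was called for PRP lysate against untreated cultures, at a log2 fold change of 1.19 (SE 0.26, limma, adjusted p = 0.0299), and against MSC-CM, at 1.08 (SE 0.26, adjusted p = 0.0374). With IL13, this made 2 of the 5 genes called against untreated cultures, where 1.39% of all genes were called, 0.265% as higher, and 3 of 5 against MSC-CM, where 2.29% were called, 0.695% as higher. The third was IL31. Neither call of IL4 was firm. Leaving out any 1 of the 6 libraries ended the call against untreated cultures (adjusted p from 0.0511 to 0.168), and so did RLE and TMM factors and edgeR (0.0574, 0.0569 and 0.0542). Leaving out any 1 library but MSC-CM replicate 1 ended the call against MSC-CM (adjusted p from 0.0750 to 0.201), and without MSC-CM replicate 1 it was 0.0132. That call was also lost in edgeR (0.0565), without the filter on low values (0.0557) and with a pseudocount of 1, where the log2 fold change of 0.94 was under 2-fold. It was lost too with the replicate number as a block, at an adjusted p of 0.0620 in the 6 libraries, whose same-numbered pairs correlated, and of 0.197 with the control groups included. Without both libraries that stand apart, the log2 fold change was 1.11 (adjusted p = 0.0341) and 1.00 (adjusted p = 0.0289).

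Against IL-1ß alone the log2 fold change of IL4 was 0.70 for PRP lysate (95% interval 0.15 to 1.26, limma, adjusted p = 0.171) and 0.54 for ACS (-0.02 to 1.09, adjusted p = 0.267), and neither was called in any alternative. Every PRP lysate and every ACS library nevertheless lay above every IL-1ß library (8.32% and 14.6% of all genes). ACS against untreated cultures came to 1.03 (limma, adjusted p = 0.189), and it was called without both libraries that stand apart (adjusted p = 0.0461) and in the fit of these 6 libraries (0.0330). ACS against MSC-CM came to 0.91 (adjusted p = 0.125) and was called in no alternative. In these comparisons IL13 was the 1 gene of 5 called, where 0.229% and 0.924% of all genes were called, and 0.107% and 0.451% as higher. IL-1ß alone against no treatment gave 0.49 (interval -0.07 to 1.04, adjusted p = 0.450), and all 5 cytokine genes went without a call in that comparison, where 0.258% of all genes were called.

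The ratio of IL13 to IL4 within a library is free of the scaling to the library total. The untreated libraries had a median ratio of 3.60 and a range of 3.31 to 5.67. The IL-1ß libraries had a median of 3.14 (2.86 to 3.25) and those of MSC-CM 3.04 (2.85 to 3.52). The medians of PRP lysate and ACS were 4.59 (4.59 to 6.95) and 5.14 (4.88 to 6.13). All libraries with PRP lysate or ACS lay above all with IL-1ß or MSC-CM, and untreated replicate 1, at 5.67, lay among them. The exact permutation p of 3 libraries against 3 cannot be under 0.1, so no single value of this kind can pass 0.05.

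The genes on either side showed how far this pattern reached along the chromosome. RAD50, a DNA repair gene between IL13 and IL5, was at 90.6 ± 19.5 CPM with IL-1ß, 106 ± 24.2 CPM with PRP lysate and 106 ± 4.91 CPM with ACS, and its log2 fold changes against IL-1ß were 0.22 (limma, adjusted p = 0.617) and 0.24 (adjusted p = 0.434). KIF3A, a kinesin gene before IL4, gave 0.37 for PRP lysate and 0.63 for ACS (adjusted p = 0.618 and 0.291). IRF1, an interferon-induced transcription factor gene beyond IL5, gave 0.55 and 0.54 (adjusted p = 0.0782 and 0.0954). Every PRP lysate and every ACS library of IRF1 lay above every IL-1ß library, as in 8.32% and 14.6% of all genes. PDLIM4, a cytoskeletal gene 348.4 kb from the start of IL13, fell with PRP lysate, from 59.9 ± 12.9 to 24.1 ± 2.40 CPM (log2 fold change -1.29, adjusted p = 0.000602). With ACS, PDLIM4 was at -0.84, under the 2-fold threshold. SOWAHA, the outermost gene on the IL4 side, stayed under 1 CPM in every library and gave -0.05 with PRP lysate and 1.76 with ACS (adjusted p = 0.976 and 0.222). Of the 10 genes in this stretch, IL13 was the 1 called as higher and PDLIM4 the 1 called as lower against IL-1ß.

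**Figure D2:**
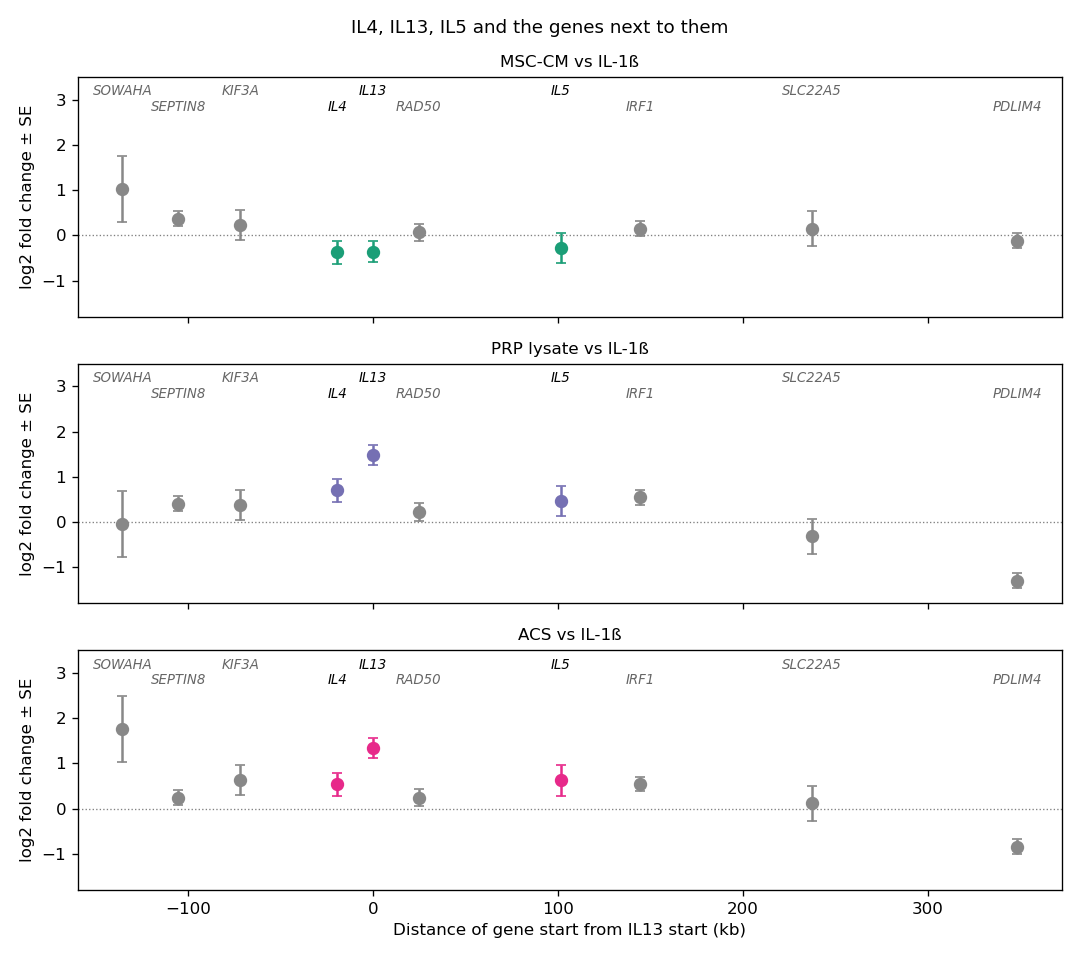
Log2 fold change against IL-1ß with its standard error (vertical axes) of IL4, IL13, IL5 (coloured) and the genes next to them (grey), by the distance of their starts from the start of IL13 in kb (horizontal axis), for MSC-CM, PRP lysate and ACS. IL13 reaches 1.48 with PRP lysate and 1.34 with ACS, RAD50 next to it stays at 0.22 and 0.24, and PDLIM4 falls to -1.29 with PRP lysate.

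IL5, the survival factor of eosinophils, lay 101.7 kb beyond IL13 and was called in no comparison and no alternative. It was at 3.52, 2.47 and 2.77 CPM in untreated cultures, 1.97, 2.66 and 2.59 CPM with IL-1ß, and 2.45, 1.62 and 1.85 CPM with MSC-CM. It was at 2.55, 5.98 and 2.43 CPM with PRP lysate and at 3.49, 3.95 and 3.78 CPM with ACS. A single library, PRP lysate replicate 2 with 250 reads, lay far above the rest of its group, which overlapped the IL-1ß libraries. The ACS libraries lay close together and all above those with IL-1ß and with MSC-CM, as in 14.6% and 12.2% of all genes, and they overlapped the untreated ones.

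The log2 fold change of IL5 against IL-1ß was 0.62 for ACS (95% interval -0.10 to 1.35, limma, adjusted p = 0.295) and 0.47 for PRP lysate (-0.25 to 1.19, adjusted p = 0.525). For PRP lysate it was 0.06 without replicate 2. The widest contrast was ACS against MSC-CM, at 0.91 (0.19 to 1.63, adjusted p = 0.262). A change of 2-fold was inside the interval of these 3 contrasts, so that one of this size was not excluded at this depth and number of libraries.

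IL31, the gene of the itch cytokine, varied within groups as well as between them. Its level was 0.511, 0.785 and 1.35 CPM in untreated cultures, on 20, 28 and 45 reads, and 3.17, 1.21 and 1.59 CPM with IL-1ß, on 114, 43 and 46 reads. With MSC-CM it was 0.249, 0.154 and 0.468 CPM, on 11, 6 and 20 reads, and a count of 6 reads has a 95% Poisson interval of 0.0566 to 0.336 CPM, which covers counting error only. With PRP lysate it was 1.21, 10.998 and 17.9 CPM, on 45, 460 and 508 reads, and with ACS 6.60, 2.84 and 2.71 CPM, on 242, 108 and 130 reads. The 3 MSC-CM libraries were the lowest of all 15. PRP lysate held both the highest values and, in replicate 1, a value level with the lowest IL-1ß library, while the ACS libraries lay above all untreated ones, as in 15.1% of all genes, and overlapped IL-1ß.

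IL31 was called higher with PRP lysate than with MSC-CM, at a log2 fold change of 4.11 (SE 0.79), from 0.290 ± 0.161 to 10.0 ± 8.38 CPM (limma, adjusted p = 0.0107). The call was lost without PRP lysate replicate 2 (3.72, adjusted p = 0.0527) and with only these 6 libraries in the fit (adjusted p = 0.0941). With the replicate number as a block it held in these 6 libraries (adjusted p = 0.00941), and with the control groups included it was lost (adjusted p = 0.0527). Without replicate 3 the fold change was 3.37, with an adjusted p of 0.05 that lay marginally over the threshold. Without both libraries that stand apart it was 5.26 (adjusted p = 4.52e-05). Over all alternatives it lay between 2.63 and 5.26, with adjusted p between 9.88e-10 and 0.0941. For ACS against MSC-CM it was 3.37 (SE 0.79, adjusted p = 0.0594), and it was called with RLE factors, with edgeR and DESeq2 on the recovered reads, in the fit of these 6 libraries and without the libraries that stand apart (adjusted p = 0.000815, range over alternatives 3.25e-05 to 0.248).

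Against IL-1ß, IL31 was at 1.72 for PRP lysate (95% interval 0.01 to 3.43, limma, adjusted p = 0.289), a value that moved with each PRP lysate library. Without replicate 1 it was 2.87 and was called (adjusted p = 0.0110), without replicate 2 it was 1.32 and without replicate 3 it was 0.98. DESeq2 on the recovered reads called it (adjusted p = 0.0291), and over all alternatives the adjusted p ranged from 0.00965 to 0.835. For ACS it was 0.98 (-0.73 to 2.69, adjusted p = 0.440) and was called in no alternative. Against untreated cultures it was 2.79 for PRP lysate (1.08 to 4.50, adjusted p = 0.112) and 2.05 for ACS (0.34 to 3.76, adjusted p = 0.561). The value for ACS was called without both libraries that stand apart (limma, adjusted p = 0.0426) and in the fit of these 6 libraries (0.0319). The value for PRP lysate was called on the recovered reads of all libraries, at 3.43 in both edgeR (adjusted p = 0.0428) and DESeq2 (adjusted p = 0.000143). It was also called at 3.94 without PRP lysate replicate 1 (limma, adjusted p = 0.00297) and without both libraries that stand apart (adjusted p = 0.000767), and over all alternatives the adjusted p reached 0.421.

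For MSC-CM against IL-1ß, IL31 was at -2.39 (SE 0.79, 95% interval -4.10 to -0.68), with every MSC-CM library below every IL-1ß library, as in 1.70% of all genes. The unadjusted p was 0.00976 and the adjusted p 0.696. With limma, 0 genes of the whole table were called in this comparison, 354 (2.54%) had an unadjusted p of at most 0.05 with a 2-fold change, and DESeq2 called 2 genes and edgeR 0. The ratio of means was 0.146. MSC-CM libraries also lay below every untreated library, as in 8.34% of all genes, at -1.32 (-3.03 to 0.39, adjusted p = 0.530). IL4, IL5 and IL13 lay at -0.38, -0.28 and -0.36 for MSC-CM against IL-1ß, in groups that overlapped, and none of the 5 genes was called in either comparison, where 0% and 0.502% of all genes were called.

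**Figure D3:**
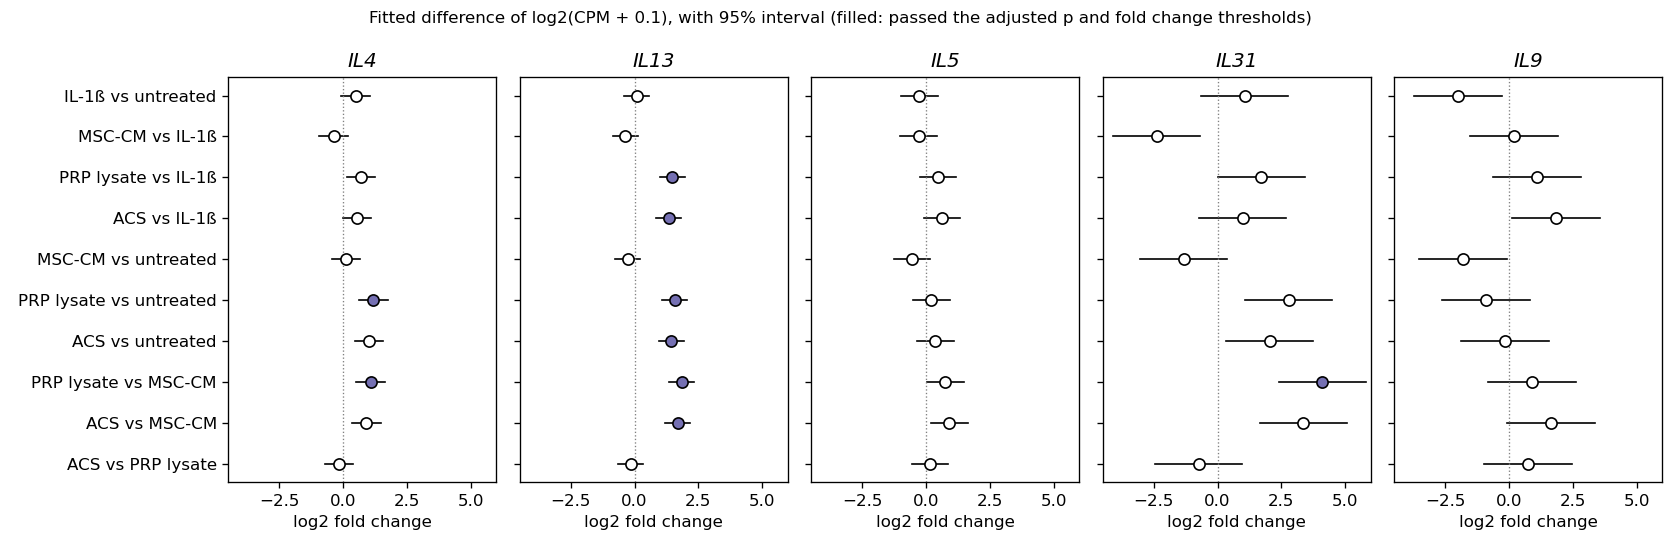
Fitted difference of log2(CPM + 0.1) between groups with its 95% interval (horizontal axes) for the 10 comparisons (rows) and 5 cytokine genes (panels). Filled points passed both thresholds: IL13 for PRP lysate and ACS against each of the other 3 groups, IL4 for PRP lysate against untreated and MSC-CM, and IL31 for PRP lysate against MSC-CM. IL31 and IL9 have the widest intervals.

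IL9, the mast cell growth factor gene, was close to the limit of detection. It had 27, 6 and 7 reads in untreated cultures, which is 0.690, 0.168 and 0.210 CPM. With IL-1ß it had 0 reads in each of the 3 libraries, and 3 counts over the group would be 0.0299 CPM. With MSC-CM it had 0, 2 and 0 reads, with PRP lysate 0, 38 and 0 reads, and with ACS 8, 21 and 6 reads. Reads were thus found in all 3 libraries of untreated and ACS cultures, in none with IL-1ß, and with PRP lysate in replicate 2 alone.

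Pooled over the libraries of a group, IL9 was at least 12.4-fold higher in untreated cultures than with IL-1ß, and at least 9.55-fold higher with ACS, against a floor of 3 counts over the IL-1ß group. Untreated replicate 1 held 27 of 40 reads, and without it the first bound was 6.30-fold. ACS replicate 2 held 21 of 35 reads, and without it the second bound was 5.53-fold. The same bound for PRP lysate was 11.8-fold and rested on replicate 2 alone, without which there was no read. The IL-1ß libraries thus all lay under the untreated ones, as in 8.35% of all genes, and under those with ACS, as in 14.6%. None of these differences was called. For IL-1ß against untreated cultures the adjusted p was 0.322 and for ACS against IL-1ß it was 0.236 (limma), and over the alternatives it ranged from 0.119 to 0.659 and from 0.0962 to 0.531.

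The PRP lysate libraries differed among themselves, and not in the same way for each cytokine gene. Replicate 2 held the highest level of all 15 libraries for IL13, IL5 and IL9, replicate 3 for IL31, and replicate 1 for IL4. Replicate 1, which stands apart on the first principal component, had the lowest IL31 of its group, 1.21 CPM beside 10.998 and 17.9 CPM, and yet an IL13 between the others. The PRP lysates came from different donor horses, and donor and preparation cannot be told apart with 1 library each. Between ACS and PRP lysate no cytokine gene was called, where 0.0932% of all genes were called. For IL31 the difference was -0.74, with an interval of -2.45 to 0.96.

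Libraries labelled as macrophages also held RNA of other leukocytes, among them the cells known to make these cytokines. All 9 listed macrophage markers were present, with a summed level from 2217 to 6507 CPM per library. In untreated cultures MRC1 and CD68 averaged 2339 and 2019 CPM, and CD14, C1QB and MARCO 2.57, 6.01 and 2.01 CPM. All 8 T lymphocyte markers (CD3D, CD3E, CD3G, CD2, CD5, CD28, LCK and ZAP70) were present too, and CD3E alone was at 172 ± 41.8 CPM in untreated cultures and 322 ± 175 CPM with IL-1ß. Their sum lay between 783 and 1136 CPM in untreated libraries and between 1088 and 2089 CPM in the IL-1ß group. MSC-CM libraries had sums between 1510 and 1632 CPM, PRP lysate libraries between 1035 and 2109 CPM, and ACS libraries between 942 and 1190 CPM. Every MSC-CM library thus had a larger sum than every untreated and every ACS library, and the ACS libraries overlapped the untreated ones. In no comparison was any of the 8 called, where 0% to 2.97% of all genes were called.

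Set against the mean log2 level of the T lymphocyte markers in the same library, IL13 was at -3.07 ± 0.38 with IL-1ß (SD, n = 3), -2.58 ± 0.40 in untreated cultures and -3.64 ± 0.50 with MSC-CM. It was at -1.62 ± 0.59 with PRP lysate and -1.38 ± 0.21 with ACS. The lowest PRP lysate library, at -2.12, lay just above the highest of the remaining groups, an untreated library at -2.14. With this mean as a covariate, a fit added after the data were seen, IL13 stayed called against IL-1ß for PRP lysate at 1.49 (limma, adjusted p = 0.000989) and for ACS at 1.29 (adjusted p = 0.00968). IL31 against MSC-CM stayed called for PRP lysate at 3.79 (adjusted p = 0.00527), and so did IL4 at 1.14 (adjusted p = 0.0122). IL4 for PRP lysate against untreated cultures was no longer called, at 0.97 (adjusted p = 0.132).

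**Figure D4:**
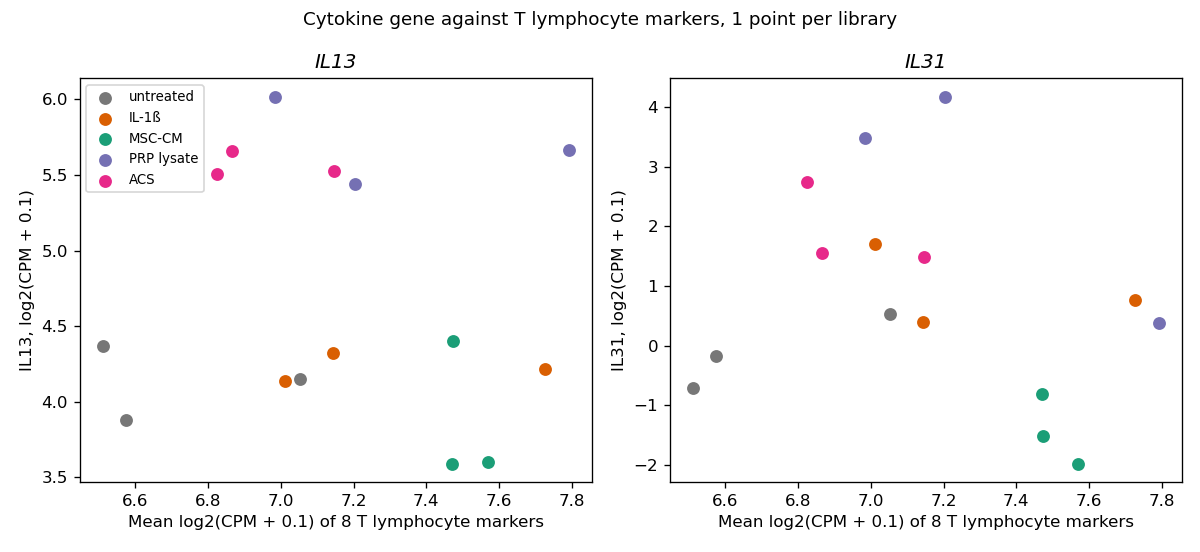
Level of IL13 (left) and IL31 (right) as log2(CPM + 0.1) against the mean log2(CPM + 0.1) of 8 T lymphocyte markers, 1 point per library, coloured by group. For IL13 the 6 PRP lysate and ACS libraries lie above all others, and for IL31 the 3 MSC-CM libraries lie lowest.

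Markers of T helper 2 cells and group 2 innate lymphoid cells were present too. Of the 6 listed, GATA3, the transcription factor that directs type 2 cytokine genes, was at 63.1 ± 12.9 CPM in untreated cultures, 97.0 ± 10.1 CPM with IL-1ß, 131 ± 13.6 CPM with MSC-CM, 114 ± 20.3 CPM with PRP lysate and 100 ± 8.34 CPM with ACS. GATA3 was called higher with MSC-CM than in untreated cultures (log2 fold change 1.07, limma, adjusted p = 0.0206), the 1 call among these markers in any comparison. Against IL-1ß, 5 of the 6 lay above 0 on the log2 scale with PRP lysate and 5 with ACS, with medians of 0.53 and 0.31 beside 0.13 and 0.17 over all genes. With MSC-CM, where IL13 was at -0.36, 5 of the 6 also lay above 0, with a median of 0.51 beside 0.20 over all genes. The receptor gene CCR8 was at 1.17 CPM with IL-1ß, 2.58 CPM with PRP lysate and 2.39 CPM with ACS. PTGDR2, a prostaglandin D2 receptor gene of these cells, went the other way, from 7.10 CPM with IL-1ß to 6.01 and 3.03 CPM. IL1RL1, the receptor of IL-33, lay between 2.18 and 9.86 CPM over the libraries of these 3 groups, in groups that overlapped.

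Markers of mast cells and basophils were low, and none of the 5 was called higher in any comparison. Their sum ran from 10.1 to 19.5 CPM in untreated libraries, 17.9 to 27.1 CPM with IL-1ß, 21.9 to 23.6 CPM with MSC-CM, 5.74 to 10.7 CPM with PRP lysate and 10.1 to 13.5 CPM with ACS. The MSC-CM sums thus all lay above the untreated ones, and 4 of 5 markers were above 0 on the log2 scale there, with a median of 0.67. Against IL-1ß, 1 of 5 was above 0 with PRP lysate and 3 of 5 with ACS, among them KIT, the stem cell factor receptor gene, at 0.0471 and 0.242 CPM, and the IgE receptor gene MS4A2, at 0.671 and 0.888 CPM with IL-1ß and ACS. FCER1A, a chain of the IgE receptor that dendritic cells also carry, fell from 15.6 ± 4.73 CPM with IL-1ß to 4.42 ± 0.931 CPM with PRP lysate (log2 fold change -1.77, limma, adjusted p = 0.00729) and 5.92 ± 1.51 CPM with ACS (-1.37, adjusted p = 0.0440). HDC, which makes histamine, fell with PRP lysate from 3.04 to 0.648 CPM (-2.02, adjusted p = 0.0347). The 2 eosinophil genes with values, EPX and CCR3, summed to at most 1.501 CPM in any library. The part of any of these cells in the levels of the cytokine genes was not tested. The fit with T lymphocyte markers adjusted only for the mean level of those markers.

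Receptors for the cytokines were present and showed no call. IL4R, the shared chain for IL-4 and IL-13, was at 1036 ± 84.0 CPM in untreated cultures and 1135 ± 68.9 CPM with IL-1ß, and at 1079, 1050 and 1105 CPM with MSC-CM, PRP lysate and ACS. IL13RA1, the other chain of the IL-13 receptor, averaged 38.9 ± 23.6 CPM in IL-1ß and 21.1 ± 14.5 CPM in PRP lysate cultures. IL9R and IL31RA had group means of at most 0.933 and 0.388 CPM. Of the 6 receptor genes tested, 0 were called in any of the 10 comparisons, where 0% to 2.97% of all genes were called. The median log2 fold change over the 6 was -0.19 for PRP lysate and 0.06 for ACS against IL-1ß, beside 0.13 and 0.17 over all genes. IL13RA2, IL5RA and CSF2RB were not analysed here.

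Of 12 signalling genes, 0 were called in any of the 10 comparisons, where 0% to 2.97% of all genes were called. STAT6 was at 176 ± 49.6 CPM with IL-1ß, 177 ± 51.5 CPM with PRP lysate and 212 ± 11.8 CPM with ACS. CISH, a feedback inhibitor of cytokine signalling through STAT5, was at 116 ± 10.1 CPM with IL-1ß, 206 ± 4.79 CPM with PRP lysate and 191 ± 1.78 CPM with ACS. Its adjusted p against IL-1ß was 0.00861 and 0.0297 (limma), at log2 fold changes of 0.83 and 0.72 that stay under the 2-fold threshold. Of 14 transcription factor genes, 0 were called against IL-1ß, where 2.97% of all genes were called with PRP lysate and 1.94% with ACS. Their medians were 0.30 for PRP lysate and 0.34 for ACS, beside 0.13 and 0.17 over all genes. For MSC-CM the median was 0.42, beside 0.20 over all genes.

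Genes that macrophages and dendritic cells raise in response to IL-4 and IL-13 were split. Of 10 tested, 2 were called higher and 2 lower with PRP lysate against IL-1ß, and 3 higher and 1 lower with ACS, where 1.12% of all genes were called higher and 1.85% lower with PRP lysate, and 1.15% and 0.788% with ACS. CCL17 and CCL22, chemokines that attract T helper 2 cells through CCR4, rose with both. CCL22 went from 84.3 ± 29.4 CPM with IL-1ß to 523 ± 54.4 CPM with PRP lysate (log2 fold change 2.69, limma, adjusted p = 0.000194) and 839 ± 60.1 CPM with ACS (3.37, adjusted p = 8.50e-05). CCL17 went from 105 ± 54.0 to 560 ± 300 and 609 ± 149 CPM (2.42 and 2.63, adjusted p = 0.00861 and 0.0101). TGM2, a transglutaminase, fell with PRP lysate from 1369 to 465 CPM (-1.55, adjusted p = 0.000314) and the scavenger receptor gene CD36 from 192 to 52.1 CPM (-1.98, adjusted p = 0.0247). With ACS, the lipoxygenase gene ALOX15 was called higher at 0.715 CPM, and CCL24, which attracts eosinophils, lower at 1.02 CPM. The median log2 fold change over the 10 genes was -0.53 for PRP lysate and 0.59 for ACS, beside 0.13 and 0.17 over all genes.

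TSLP encodes an alarmin that starts type 2 responses. It had no read in the 3 IL-1ß libraries and was at 0.394 ± 0.105 CPM in untreated cultures, 0.213 ± 0.160 CPM with MSC-CM, 1.96 ± 1.05 CPM with PRP lysate and 3.94 ± 0.942 CPM with ACS. It was called higher with PRP lysate and with ACS than in each of the other 3 groups, and against MSC-CM its log2 fold change was 2.699 (limma, adjusted p = 0.00440) and 3.78 (adjusted p = 0.00152). The alarmin genes IL33 and IL25 were at 0 in 14 of 15 libraries, and so was the receptor gene IL7R, which T cells carry.

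Other cytokine genes that T cells can make were in part called with IL13, and which cells made their RNA was not tested. Of 10 tested, CSF2, IFNG, IL17A, LTA and TNF, which is 5, were called higher with PRP lysate than with IL-1ß, where 1.12% of all genes were, and IFNG, LTA and TNF, which is 3, with ACS, where 1.15% were. None was called lower, and IL2, IL10, IL17F, IL21 and IL22 were called in neither comparison, with IL10 at 10.1 CPM with IL-1ß, 9.30 CPM with PRP lysate and 7.29 CPM with ACS. IFNG, the hallmark type 1 cytokine and an opponent of type 2 responses, was at 9.24 ± 1.37 CPM with IL-1ß, 36.4 ± 6.46 CPM with PRP lysate and 20.3 ± 3.13 CPM with ACS (log2 fold change 1.96 and 1.13, limma, adjusted p = 0.000702 and 0.0366). IL17A was at 1.30 ± 0.766, 6.33 ± 2.16 and 1.77 ± 0.532 CPM (2.37 and 0.60, adjusted p = 0.0141 and 0.444). The median log2 fold change over the 10 genes was 1.91 for PRP lysate and 1.03 for ACS, and IL13 lay under the first and above the second.

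The genes whose pattern over the 15 libraries was most like IL4, IL5, IL13 and IL31 were found by Pearson's r of log2(CPM + 0.1), as a description, since the libraries share their groups and depth, and no such list was made for IL9, which had too few reads. IL13 was the gene most like IL4 of all 13955 tested, with r of 0.89 and Spearman's rho of 0.88, and r was 0.93 without the 2 libraries farthest from the median of IL4. IL4 in turn ranked 4 for IL13, behind MMP25, TSPAN33 and ENSECAG00000036967, whose r was 0.92 in each case. IL31 ran closest to neutrophil-attracting and inflammatory genes instead, namely CXCL8 (r 0.96), IL1B (0.92), TREM1 (0.92), CXCL6 (0.91) and CXCL1 (0.89), and IL13 ranked 49 there with r of 0.73. CXCL8 had means of 481 CPM with MSC-CM, 731 CPM in untreated cultures, 833 CPM with IL-1ß, 1636 CPM with ACS and 2280 CPM with PRP lysate, the order of groups that IL31 had too. IL5 was most like HSPA1L (r 0.84), a heat shock protein gene, with IL9, at 0 reads in 7 of the 15 libraries, at rank 5 (0.79) and IL13 at rank 18 (0.76). Its r with IL31 dropped from 0.54 to 0.21 without the 2 libraries farthest from its median, MSC-CM replicate 2 and PRP lysate replicate 2.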

How the data were processed

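RNA of 15 cultures in 5 groups was sequenced, with 3 libraries per group. Per the paper and the submitters' notes, the authors trimmed reads with cutadapt, aligned them with STAR 2.7.3 to EquCab3.0, counted them with HTSeq on Ensembl genes, and deposited CPM made in Partek Flow. Of the deposited columns, 0 were left unmatched to a sample. The step between neighbouring values in a library gave back whole reads, and 100% of values were whole within 0.05 reads.

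The limma fit was on log2(CPM + 0.1) and took all genes averaging 0.1 CPM or more. The pseudocount understates changes of low genes. Groups were compared without pairing, with Benjamini-Hochberg adjustment over all genes within a comparison. Of 18 pairs of libraries with the same replicate number, 11 correlated above 0.1 (r from -0.50 to 0.37). All 3 pairs of MSC-CM with PRP lysate did (r from 0.10 to 0.37). These groups were therefore also compared with the number as a block. Every other pair of groups held at least 1 negative r. Libraries of differing number correlated too, such as MSC-CM replicate 3 with PRP lysate replicate 2 (r 0.22). The r of IL-1ß replicate 3 with PRP lysate replicate 1, which both stand apart, was 0.53. The check thus cannot decide whether the numbers pair the samples. Alternatives were a pseudocount of 1, no filter, RLE and TMM factors, edgeR and DESeq2 on recovered reads, fewer libraries and a replicate block. Those with T lymphocyte markers as covariate, with a block in the 6 MSC-CM and PRP lysate libraries alone, or without IL-1ß replicate 3 and PRP lysate replicate 1 were chosen after seeing the data. The cytokine genes and lists (receptors, signalling, transcription factors, alarmins, response genes, T cell cytokines, cell type markers, 3 neighbours on each side, 5 most alike genes) were chosen with earlier results of these data known. Steps were tested on simulated data. Software was limma 3.58.1, DESeq2 1.42.0 and edgeR 4.0.16 in R 4.3.3, with scipy 1.17.1 and matplotlib 3.10.9 in Python 3.11.15.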

Additional observations from a re-analysis of the deposited data

How the results depend on the processing

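Of the alternatives for single cytokine genes, 750 values kept their direction and side of the thresholds, 16 became called, 38 lost a call and 20 turned sign, and the cause was not tested. The number of cytokine genes called against IL-1ß for PRP lysate was 1, but 2 (IL13 and IL31) with DESeq2 and without both libraries that stand apart, 0 with only the 6 libraries compared, which have fewer samples to estimate the spread, and 1 to 2 on leaving out 1 library. For ACS against IL-1ß it was 0 with the 6 libraries and 0 to 1 on leaving out 1. Against untreated cultures, PRP lysate had 2 (IL4 and IL13), but 1 with RLE, TMM, the 6 libraries, or T lymphocyte markers as covariate, 3 (IL4, IL13, IL31) with DESeq2 and without both libraries that stand apart, and 1 to 2 on leaving out 1 library, while edgeR gave 2 that were IL13 and IL31. ACS had 1, but 0 with edgeR and on leaving out any library, and 3 (IL4, IL13, IL31) with the 6 libraries or without both libraries that stand apart. Against MSC-CM, PRP lysate had 3, but 2 (IL13 and IL31) with edgeR, no filter and a pseudocount of 1 at either filter, 1 with the 6 libraries and 1 to 3 on leaving out 1, and ACS had 1, but 2 (IL13 and IL31) with RLE, edgeR, DESeq2, the 6 libraries and without both libraries that stand apart. The replicate block over all groups but ACS gave 1 for PRP lysate against untreated cultures and 1 against MSC-CM and changed no other number, and in the 6 MSC-CM and PRP lysate libraries alone it gave 2 (IL13 and IL31). It could not be fitted for ACS, whose libraries carry no replicate number in the labels.

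All values that turned sign were uncalled, and 1 left-out library turned most of them. Leaving out 1 library at a time gave -0.034 to 0.21 for IL13 between IL-1ß and untreated cultures, -0.17 to 0.33 for IL4 between MSC-CM and untreated cultures (-0.0033 without untreated replicate 1), -0.21 to 0.43 for IL5 between PRP lysate and untreated cultures, -0.59 to 0.32 for IL9 between ACS and untreated cultures (0.18 without ACS replicate 3), and -0.20 to 1.47 for IL9 between PRP lysate and MSC-CM. Between ACS and PRP lysate it gave -0.066 to 0.57 for IL5 (-0.031 without PRP lysate replicate 1), -0.28 to 0.011 for IL13 and -1.89 to 0.0012 for IL31. Also between ACS and PRP lysate, IL5 was -0.0033 with edgeR and -0.031 without both libraries that stand apart, and IL9 was -0.073 with edgeR and -0.032 with DESeq2. Against untreated cultures, IL4 with MSC-CM was -0.0079 with RLE, and with T lymphocyte markers as covariate IL4 with MSC-CM was -0.17, IL31 with MSC-CM 0.11, IL9 with PRP lysate 0.16 and IL9 with ACS 0.24. Depth limited IL9 and, with MSC-CM, IL31, where 3 reads are 0.0626 to 0.106 CPM.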

Other observations

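Markers of other cell types gave few calls as higher. Of 9 macrophage markers, 0 were called higher against IL-1ß, 3 were called lower with PRP lysate (AIF1, CD163 and MARCO) and 2 with ACS (AIF1 and CD163), where 1.85% and 0.788% of all genes were called lower. The scavenger receptor gene CD163 went from 563 ± 173 CPM with IL-1ß to 11.4 ± 3.48 CPM with PRP lysate (log2 fold change -5.62; limma, adjusted p = 7.43e-06) and 64.6 ± 25.0 CPM with ACS (-3.14; adjusted p = 0.00183). Of 5 natural killer cell markers and 4 B cell markers, 0 were called in any comparison, where 0% to 2.97% of all genes were called. For PRP lysate against IL-1ß, 4 of the 5 natural killer cell markers lay above 0 on the log2 scale, with a median of 0.36. Fibroblast markers summed to at most 2.94 CPM in any library, and COL1A1 was called higher with ACS than with IL-1ß, at 1.07 CPM. All 4 fibroblast markers tested lay above 0 in that comparison, with a median log2 fold change of 0.82. Their means with IL-1ß were at most 0.530 CPM. For ACS against untreated cultures 2 of the 4 lay above 0, with a median of -0.08.

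Around IL31, the neighbour MLXIP was at 32.3 ± 9.27 CPM with IL-1ß, 29.8 ± 2.03 CPM with PRP lysate and 37.4 ± 5.999 CPM with ACS. Around IL9, CXCL14 averaged 8.90 ± 2.37 CPM in IL-1ß cultures and 4.39 ± 1.34 CPM in ACS cultures, and it was not called (log2 fold change -1.02; limma, adjusted p = 0.114).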
